A study of Homo sapiens with 9 samples.

Results

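Expression of 48 genes that copy the genome in S phase was followed in LiSa-2 cells, a human liposarcoma line, after treatment with hyaluronidase. The genes encode the factors that mark and license replication origins, the replicative helicase, the clamp and its loader, the polymerases, and enzymes that supply deoxynucleotides. They were chosen by gene symbol, 48 of the 19775 genes with a probe set of their own on the arrays. Where a gene had several probe sets, the one with the highest mean on the 9 arrays stood for it. Their 88 probe sets were part of 41091 probe sets with 1 gene symbol. All 48 passed the filter on low signal, and each lay above the control probe sets on all 9 arrays.

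The study had 3 groups of 3 arrays, 1 array per sample. Cells received bovine testicular hyaluronidase (HAase), an enzyme preparation that cleaves hyaluronan of the cell coat, at 400 µg/mL for 24 h or for 6 h, or phosphate-buffered saline (PBS) for 24 h. All 3 groups were the same unmodified cell line, grown on plates in medium with bovine serum. The title of the series names matrix remodeling and glucose metabolism. The 6 h samples had no PBS samples of their own time, so in their comparison with PBS the enzyme and the time of harvest cannot be told apart. No sample received inactivated enzyme. Nothing in the labels says that replicates came from separate cultures, so the spread behind the p-values is that of these samples and may be technical.

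Before S phase, the origin recognition complex, CDC6 and CDT1 load the MCM helicase onto DNA in a step called licensing. Kinases then recruit CDC45 and GINS to turn it into an active helicase, and polymerases alpha, delta and epsilon copy the strands behind it. Many of these genes are transcribed near the border of G1 and S phase by E2F factors, and in cultured tumour cells their mRNA is commonly read as a sign of proliferation.

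The arrays of a group correlated at 0.9891 to 0.9911 across genes, against 0.9517 to 0.9736 between groups. The deposited signals were scaled to the same trimmed mean on every array. The adipocyte and liposarcoma markers were measured: FABP4, a fatty acid carrier of fat cells, averaged 26097 at 24 h, 31931 at 6 h and 33295 in PBS, and ADIPOQ, the adiponectin gene, averaged 38.7 (above the controls on 1 of 3 arrays), 371 and 926 in the same groups. Of 3 genes often amplified in liposarcoma, CDK4 and MDM2 lay above the controls on all arrays. The third, HMGA2, averaged 1643 at 24 h and 725 at 6 h, against 51.0 in PBS, where 1 of 3 arrays was above the controls. The summed signal of 8 adipocyte markers ran from 28974 to 33584 at 24 h, from 44696 to 46879 at 6 h and from 56742 to 58802 in PBS. FABP4 was the brightest of them and weighs most in the sum, and LEP lay above the controls on no array. CEBPA was lowest at 6 h, averaging 1002 at 24 h, 794 at 6 h and 7089 in PBS. PLIN1 averaged 118, 766 and 1749 in the same groups, and LPL 1933, 7177 and 7667. Of 5 mesenchymal markers, VIM averaged 29100 at 24 h, 28214 at 6 h and 27450 in PBS. COL1A1 averaged 336, 1042 and 1247 in the same groups, COL1A2 446, 1451 and 2027, and PDGFRB 192, 556 and 241. THY1 was above the controls on the 6 h arrays only. The control level ran from 34.2 to 65.0. Of markers of other cell types, the 4 leukocyte markers measured summed to 217 to 272 at 24 h, 121 to 178 at 6 h and 103 to 137 in PBS, the 4 endothelial ones to 415 to 433, 370.4 to 418 and 272 to 334 in the same groups, and the 5 epithelial ones to 192 to 259.8, 192 to 289 and 170.2 to 248. PTPRC, CDH5, EPCAM, CDH1 and KRT19 were above the controls on no array. PECAM1, LCP1 and KRT8 were above them on all 9: PECAM1 averaged 349 at 24 h, 316 at 6 h and 236 in PBS, LCP1 148, 96.9 and 75.0, and KRT8 146, 174 and 133. The log2 difference between the 3' and 5' control probe sets of ACTB, a sign of RNA quality, averaged 1.524 at 24 h, 1.367 at 6 h and 1.643 in PBS, and the 6 h and PBS arrays did not overlap (exact permutation p = 0.1, two-sided, the smallest that 3 against 3 can give). For GAPDH it averaged -0.106 at 24 h, -0.0217 at 6 h and 0.0115 in PBS, and the 24 h and PBS arrays did not overlap (exact permutation p = 0.1). The part of these differences in the results below was not tested.

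Replication genes moved by small amounts and in both directions. After 24 h of HAase, 3 of the 48 were higher than in PBS and 10 were lower, by limma at an adjusted p under 0.05, which is 27.1% of them against 40.3% of all 13842 genes tested. After 6 h, 9 were higher and 13 were lower, 45.8% against 42.4% of all genes. None changed 2-fold: on the probe set used for each gene, the largest change was 1.56-fold at 24 h and 1.39-fold at 6 h. A second RRM2 probe set, about as bright, gave a log2 fold change of 0.71 at 6 h, where the 1.39-fold change was -0.48. Of all genes, 4.0% were called and over 2-fold higher and 4.25% over 2-fold lower at 24 h, and 3.38% and 3.22% at 6 h. With the filter used, the share called was below that of all genes at 24 h and close to it at 6 h. The members are bright: the lowest of their means, that of PRIM2, ranked at percentile 57.25 of all genes. With a 50th percentile filter, 5340 of 9888 genes passed the test at 24 h and 5591 at 6 h. Among members it was then 4 higher and 12 lower at 24 h, and 9 and 13 at 6 h. Against those brighter genes the share of members called was lower at both times. Without PBS replicate 3, 1 gene was higher at 24 h, and without 24 h replicate 2, 6 were lower.

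By direction, the background at 24 h was 17.5% of all genes higher and 22.8% lower, and at 6 h 15.0% higher and 27.4% lower. The median log2 fold change of the 48 genes was -0.058 at 24 h and -0.067 at 6 h, beside -0.026 and -0.083 for all genes tested. Their median absolute log2 fold change was 0.106 at 24 h and 0.175 at 6 h, against 0.255 and 0.2703 for all genes. At 24 h the arrays of 4 members lay wholly above PBS and those of 15 wholly below, where 23.1% of all genes lay above and 28.9% below (52.0% in all). The 6 h arrays lay wholly above PBS for 9 members and wholly below for 18, where 19.7% of all genes lay above and 34.5% below (54.2% in all). With the arrays set to equal medians, the 24 h split was 4 higher and 5 lower, beside 3 and 10 as deposited, and the calls of CDC7, LIG1, MCM3, MCM4 and TYMS were lost. At 6 h those of RFC1, RFC4 and RPA2 were lost. With the mean of a gene's probe sets in place of the brightest, the calls of FEN1, MCM4, ORC5, RFC3, RPA1 and TYMS at 24 h were lost, and those of CDT1, MCM8, MCM10, POLA2, RFC4, RFC5 and RPA2 at 6 h. In these bulk samples, a change in the share of cells in S phase and a change in RNA per cell cannot be told apart, in either direction.

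**Figure D1:**
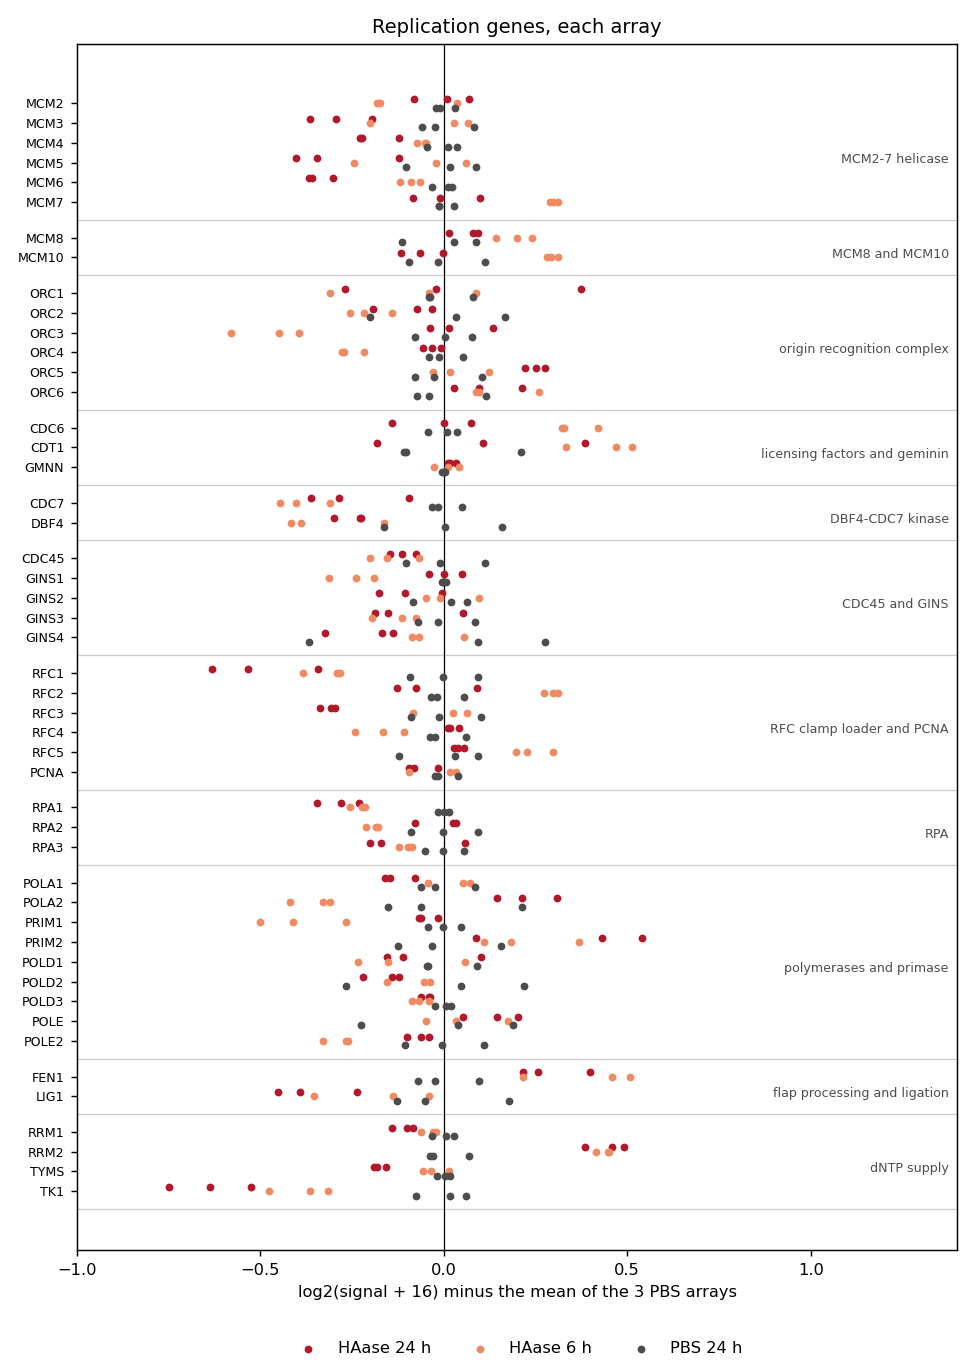
Each point is 1 array of HAase 24 h, HAase 6 h or PBS, and the horizontal axis is log2(signal + 16) minus the mean of the 3 PBS arrays of that gene. The 48 genes are grouped by role, and RRM2 lies to the right of PBS at both times while TK1 lies to the left.

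The promoters of these genes bear on whether the members share a regulatory sequence, since E2F factors are known regulators of many of them. RefSeq promoter windows of build GRCh38.p14, from 250 bases before to 50 bases after the annotated start, were matched by symbol for 42 of the 48 genes. RPA2, RPA3, MCM4, MCM5, GINS4 and POLD3 were not matched. For genes with several windows the first listed was used. Windows of 6 genes are printed 5' to 3' on the gene's strand: CDC6 and MCM7, which were higher at 6 h, ORC3 and GINS1, which were lower at 6 h, MCM6, which was lower at 24 h, and RRM2, which was higher at both times. Capitals mark 3 kinds of letters, searched on both strands: E2F-type strings (TTTCGCGC, TTTGGCGC, TTTCCCGC, TTTGCCGC, TTTGGCGG and TTTCGCGG), the CCAAT box (CCAAT) and the CHR element (TTTGAA). On the opposite strand they read as their reverse complements, such as ATTGG for CCAAT.
CDC6 (chr17:40287629-40287928, plus strand): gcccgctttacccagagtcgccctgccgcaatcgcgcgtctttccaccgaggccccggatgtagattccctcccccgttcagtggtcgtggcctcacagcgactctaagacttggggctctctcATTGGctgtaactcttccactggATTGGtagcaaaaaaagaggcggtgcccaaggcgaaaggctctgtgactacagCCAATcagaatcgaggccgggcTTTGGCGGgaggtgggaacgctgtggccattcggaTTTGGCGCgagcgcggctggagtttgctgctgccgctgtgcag
MCM7 (chr7:100101348-100101647, minus strand): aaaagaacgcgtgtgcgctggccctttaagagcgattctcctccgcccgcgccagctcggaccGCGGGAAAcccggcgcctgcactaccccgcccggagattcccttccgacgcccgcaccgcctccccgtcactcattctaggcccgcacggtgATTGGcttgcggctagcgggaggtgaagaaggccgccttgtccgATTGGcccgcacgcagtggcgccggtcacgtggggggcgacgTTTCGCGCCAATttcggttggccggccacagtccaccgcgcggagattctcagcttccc
ORC3 (chr6:87589885-87590184, plus strand): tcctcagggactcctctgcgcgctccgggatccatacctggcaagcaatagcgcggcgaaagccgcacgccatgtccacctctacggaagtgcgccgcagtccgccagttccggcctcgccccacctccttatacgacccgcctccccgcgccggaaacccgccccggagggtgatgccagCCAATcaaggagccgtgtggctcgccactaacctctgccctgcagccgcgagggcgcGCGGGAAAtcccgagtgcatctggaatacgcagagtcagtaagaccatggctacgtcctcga
GINS1 (chr20:25407423-25407722, plus strand): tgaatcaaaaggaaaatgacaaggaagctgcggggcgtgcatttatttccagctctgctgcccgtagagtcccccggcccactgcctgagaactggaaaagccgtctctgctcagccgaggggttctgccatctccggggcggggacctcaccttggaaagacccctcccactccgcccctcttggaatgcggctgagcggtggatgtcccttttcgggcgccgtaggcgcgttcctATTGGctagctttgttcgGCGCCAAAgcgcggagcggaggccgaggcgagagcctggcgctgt
MCM6 (chr2:135876394-135876693, minus strand): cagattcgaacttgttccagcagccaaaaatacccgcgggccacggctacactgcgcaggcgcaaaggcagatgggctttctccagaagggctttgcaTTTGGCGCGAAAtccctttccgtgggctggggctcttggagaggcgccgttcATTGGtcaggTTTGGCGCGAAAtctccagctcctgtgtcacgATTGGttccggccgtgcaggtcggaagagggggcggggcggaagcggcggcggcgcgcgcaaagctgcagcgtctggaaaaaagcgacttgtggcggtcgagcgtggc
RRM2 (chr2:10122489-10122788, plus strand): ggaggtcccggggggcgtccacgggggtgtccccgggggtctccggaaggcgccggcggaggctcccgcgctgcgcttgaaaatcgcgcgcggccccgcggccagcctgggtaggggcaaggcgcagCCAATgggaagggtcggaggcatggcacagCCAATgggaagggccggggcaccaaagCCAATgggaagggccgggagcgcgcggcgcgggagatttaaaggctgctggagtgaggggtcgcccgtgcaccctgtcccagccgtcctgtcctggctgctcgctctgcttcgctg

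An E2F-type string was present in 22 of the 42 windows (52.4%), against 6.69% of the windows of 11167 tested genes and 4.32% of all 27305 windows. CCAAT was present in 23 (54.8%), against 36.5% of tested genes, and TTTGAA in 2 (4.76%), against 10.3%. In the MCM6 window each of 2 runs holds TTTGGCGC and, overlapping it on the other strand, TTTCGCGC. In that of MCM7 the last base of TTTCGCGC is the first base of a CCAAT. The RRM2 window holds 3 CCAAT boxes and no E2F-type string. E2F-type strings were present for 5 of the 9 members that were higher at 6 h, for 5 of the 12 lower ones with a window and for 12 of the 21 others. At 24 h they were present for none of the 3 higher members, for 6 of the 9 lower ones with a window and for 16 of the 30 others. No test was made of these counts. With every window of a gene counted, 24 of the 42 genes had such a string, CDC7 and GMNN being added. A match of letters does not show that a factor binds there.

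Among the 6 genes of the origin recognition complex, which binds origins, ORC3 and ORC4 fell at 6 h and ORC5 rose at 24 h. That is 33.3% lower at 6 h and 16.7% higher at 24 h, near the 27.4% and 17.5% of all genes. ORC3 had signals of 1273, 1384 and 1226 at 24 h and of 954, 918 and 836 at 6 h, against 1191, 1328 and 1263 in PBS. All 3 arrays at 6 h lay below every other array. Its log2 fold change against PBS was 0.037 ± 0.07 (SE, limma adjusted p = 0.735) at 24 h and -0.48 ± 0.07 (adjusted p = 0.00154) at 6 h. On the probe set used for each gene, that was the largest fall of any member at 6 h. ORC4 gave 2937, 2990 and 2886 at 24 h and 2580, 2476 and 2483 at 6 h, against 2979, 3116 and 2920 in PBS. It too was low on the 6 h arrays only, by a log2 change of -0.26 ± 0.05 (SE, limma adjusted p = 0.00378). A dimmer ORC4 probe set was lower at both times, by -0.45 at 24 h and -0.42 at 6 h (limma adjusted p = 0.0151 and 0.0197 over all probe sets), and the times differed by -0.026 (adjusted p = 0.895).

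ORC5 was the gene of the complex that rose at 24 h. Its signals were 2898, 2949 and 2838 at 24 h and 2465, 2384 and 2656 at 6 h, against 2306, 2620 and 2389 in PBS, so the 24 h arrays lay above both other groups. The log2 fold change at 24 h was 0.25 ± 0.07 (SE, limma adjusted p = 0.0186), and the call was lost without 24 h replicate 2 or without PBS replicate 1 or 3 (adjusted p between 0.056 and 0.0648). ORC6 had 1364, 1302 and 1483 at 24 h and 1358, 1531 and 1366 at 6 h, against 1383, 1212 and 1240 in PBS, and its groups overlapped. ORC1 and ORC2 did not pass the test at either time, with log2 fold changes between -0.20 and 0.03. Another ORC2 probe set was lower at 6 h (-0.55, limma adjusted p = 0.0131 over all probe sets) and at 24 h (-0.42, adjusted p = 0.039).

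Among the licensing factors, CDC6 and CDT1 were higher at 6 h and not at 24 h. CDC6, an ATPase that loads the helicase with CDT1, had signals of 1318, 1455 and 1532 at 24 h and 1952, 1822 and 1832 at 6 h, against 1412, 1465 and 1491 in PBS. The 6 h arrays lay above all others, and the 24 h and PBS arrays overlapped. The log2 fold change at 6 h was 0.36 ± 0.07 (SE, limma adjusted p = 0.00369), 1.28-fold, and a second CDC6 probe set gave 0.33. At 24 h it was -0.023 ± 0.07 (adjusted p = 0.819).

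CDT1, the partner of CDC6, gave 691, 848 and 1031 at 24 h and 1129, 1094 and 993 at 6 h, against 731, 912 and 727 in PBS. Its 6 h arrays were above all PBS arrays, and the log2 change was 0.44 ± 0.15 (SE, limma adjusted p = 0.0487). It was close to the threshold and was lost on leaving out any 6 h replicate or PBS replicate 1 or 3 (adjusted p between 0.0677 and 0.133), and the other CDT1 probe set gave -0.081. GMNN (geminin), which blocks CDT1 after origins have fired, showed log2 fold changes of 0.021 ± 0.04 at 24 h and 0.0096 ± 0.04 at 6 h (SE, limma adjusted p = 0.748 and 0.88). The signal of GMNN ran from 6544 to 6858 over the 9 arrays.

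Genes for the helicase subunits MCM2 to MCM7, which form 1 ring, differed among themselves. At 24 h 3 of the 6 fell (MCM3, MCM4 and MCM6), 50% against 22.8% of all genes lower. At 6 h MCM7 alone of the 6 changed, upwards, 16.7% against 15.0% of all genes higher. MCM6 had 8181, 8227 and 8572 at 24 h and 9929, 9729 and 10098 at 6 h, against 10335, 10640 and 10721 in PBS. Its 24 h arrays lay below those of both other groups, and its log2 change of -0.34 ± 0.05 (SE, limma adjusted p = 0.000642) was the largest among the 6. A dimmer MCM6 probe set gave -0.63 at 24 h (adjusted p = 0.0186 over all probe sets). MCM7 gave 2608, 2962 and 2744 at 24 h and 3434, 3399 and 3380 at 6 h, against 2815, 2739 and 2737 in PBS. Its 6 h arrays stood above all others, with a log2 change of 0.30 ± 0.06 (SE, limma adjusted p = 0.00381), and a second probe set gave 0.26.

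MCM5 had 1385, 1443 and 1688 at 24 h and 1809, 1547 and 1916 at 6 h, against 1953, 1709 and 1858 in PBS. The 24 h arrays lay below PBS, but the log2 change of -0.29 ± 0.11 (SE) did not pass the test (limma adjusted p = 0.0634). MCM2 gave 2602, 2772 and 2890 at 24 h and 2438, 2428 and 2826 at 6 h, against 2815, 2737 and 2714 in PBS, with overlapping groups and adjusted p-values of 0.991 at 24 h and 0.29 at 6 h. The falls of MCM3 (-0.28 ± 0.09, limma adjusted p = 0.031) and MCM4 (-0.19 ± 0.05, adjusted p = 0.0182) at 24 h were lost on leaving out 24 h replicate 1 or 2 (adjusted p between 0.0582 and 0.096). They were lost too without PBS replicate 1 or 2 for MCM3 (0.0652 and 0.0985) and without PBS replicate 2 or 3 for MCM4 (0.0553 and 0.06). For MCM4, 3 other probe sets gave -0.27, -0.27 and -0.23 at 24 h, each past the test over all probe sets.

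MCM10 and MCM8 share the family name but not the ring. MCM10, which helps to start the loaded helicase, had 1049, 1136 and 1088 at 24 h and 1396, 1415 and 1386 at 6 h, against 1064, 1231 and 1125 in PBS. The 6 h arrays lay above all others (log2 fold change 0.29 ± 0.06 SE, limma adjusted p = 0.00739), while its other probe sets gave 0.003 and 0.21, neither past the test. MCM8, a helicase of recombination repair, gave 889, 848 and 897 at 24 h and 996, 967 and 929 at 6 h, against 893, 774 and 857 in PBS. Its rise at 6 h, 0.19 ± 0.07 (SE, limma adjusted p = 0.0447), was lost on leaving out any 6 h replicate or PBS replicate 2 or 3 (adjusted p between 0.0594 and 0.13).

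Of the genes for the kinase that fires origins, CDC7 fell at both times and DBF4 at 6 h. CDC7, its catalytic subunit, had signals of 1531, 1339 and 1270 at 24 h and 1233, 1316 and 1196 at 6 h, against 1598, 1692 and 1616 in PBS. Every HAase array lay below every PBS array, and the log2 fold change was -0.25 ± 0.08 at 24 h and -0.39 ± 0.08 at 6 h (SE, limma adjusted p = 0.0364 and 0.00512). The 24 h call was lost without 24 h replicate 2 or 3 or without any PBS replicate (adjusted p between 0.068 and 0.106). DBF4, which activates CDC7, gave 2934, 2791 and 2940 at 24 h and 2624, 3068 and 2573 at 6 h, against 3448, 3840 and 3073 in PBS. It passed the test at 6 h (-0.32 ± 0.10 SE, limma adjusted p = 0.0307) and not at 24 h (-0.25 ± 0.10, adjusted p = 0.0777). The 6 h call of DBF4 was lost without 6 h replicate 1 or 3 or PBS replicate 1 or 2 (adjusted p between 0.0752 and 0.0958).

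Of CDC45 and the GINS subunits, which complete the active helicase, GINS1 alone changed, downwards at 6 h. That is 20% of the 5 genes lower, against 27.4% of all genes. GINS1 had 5712, 5370 and 5518 at 24 h and 4675, 4442 and 4837 at 6 h, against 5502, 5546 and 5516 in PBS. The 6 h arrays lay below all others, its log2 change being -0.25 ± 0.05 (SE, limma adjusted p = 0.00598), against 0.0027 at 24 h (adjusted p = 0.976). CDC45 gave 759, 779 and 742 at 24 h and 784, 737 and 713 at 6 h, against 890.1, 817 and 765 in PBS, and overlapped between groups (adjusted p = 0.237 and 0.133). GINS4 was dimmer and more variable, with 343, 335 and 299.9 at 24 h and 356, 361 and 395 at 6 h, against 405, 290.1 and 462 in PBS, and did not pass the test. GINS2 and GINS3 did not pass it either, with log2 fold changes between -0.13 and 0.01.

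Genes for the clamp loader subunits RFC1 to RFC5 moved in different directions, and that of the clamp, PCNA, did not pass the test. At 6 h 33.3% of these 6 genes were higher and 33.3% lower, against 15.0% and 27.4% of all genes. At 24 h none was higher and 33.3% were lower, against 17.5% and 22.8%. RFC1, the large subunit of the loader that places PCNA on DNA, had 1025, 1172 and 955 at 24 h and 1215, 1223 and 1137 at 6 h, against 1398, 1591 and 1487 in PBS. Every HAase array lay below PBS: the log2 fold change was -0.50 ± 0.09 at 24 h and -0.32 ± 0.09 at 6 h (SE, limma adjusted p = 0.00229 and 0.0192). The 6 h call was lost without 6 h replicate 3 (adjusted p = 0.063) or PBS replicate 2 (0.0664), and a second RFC1 probe set gave -0.30 and -0.31, neither past the test. RFC2 gave 1253, 1208 and 1406 at 24 h and 1600, 1626 and 1642 at 6 h, against 1373, 1302 and 1288 in PBS. Its 6 h arrays lay above all others (0.29 ± 0.07 SE, limma adjusted p = 0.00826), and its second probe set gave 0.20, not past the test.

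RFC3 was low at 24 h instead, with 5214, 5258 and 5111 at 24 h and 6748, 6565 and 6092 at 6 h, against 6403, 6074 and 6925 in PBS. The log2 fold change at 24 h was -0.31 ± 0.07 (SE, limma adjusted p = 0.00607), and the 6 h and PBS arrays overlapped. Its other probe sets gave -0.26 (adjusted p = 0.065) and 0.011 at 24 h, and their mean with the first gave -0.19 (adjusted p = 0.053). RFC4 was lower at 6 h (-0.17 ± 0.05 SE, limma adjusted p = 0.0357), a call lost without 6 h replicate 2 or 3 or any PBS replicate (adjusted p between 0.0564 and 0.111). RFC5 was higher at 6 h (0.24 ± 0.06 SE, limma adjusted p = 0.0193), but 2 other RFC5 probe sets gave -0.16 and 0.057, and the call was lost without 6 h replicate 1 (0.0633) or PBS replicate 2 (0.0518). The sliding clamp gene PCNA, among the brightest members, ran from 12874 to 14111 over the 9 arrays, and its log2 fold changes were -0.064 ± 0.05 at 24 h and -0.015 ± 0.05 at 6 h (SE, limma adjusted p = 0.398 and 0.855).

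**Figure D2:**
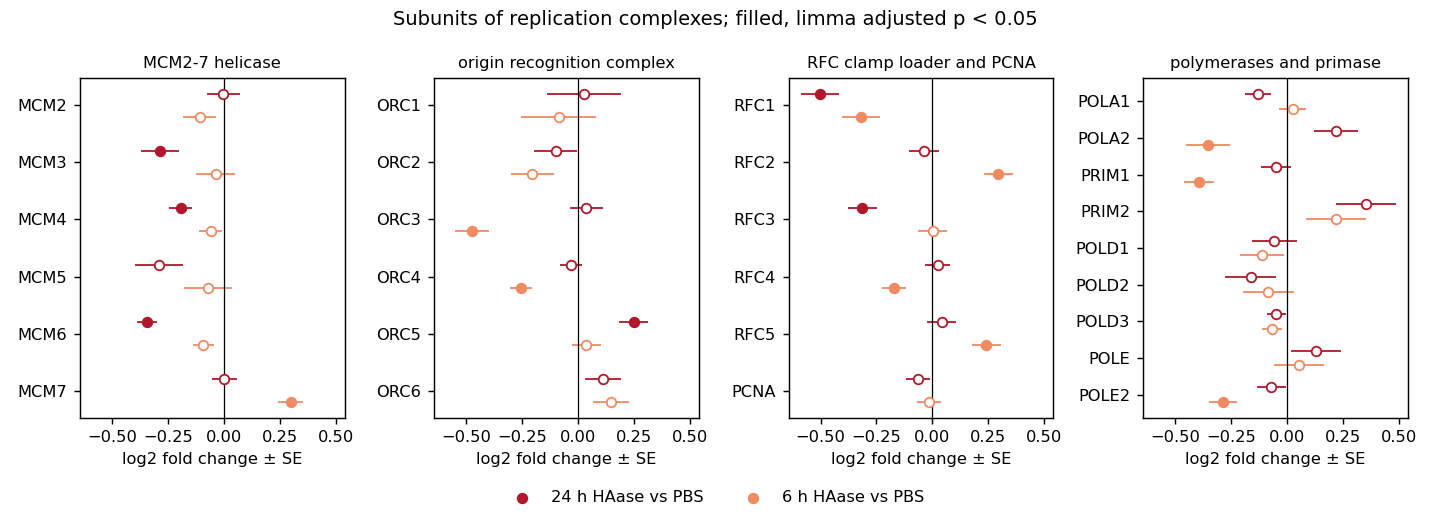
Log2 fold change against PBS with its SE for each subunit of 4 groups of genes, at 24 h and at 6 h of HAase. Filled circles passed limma's test at an adjusted p under 0.05. MCM7, RFC2 and RFC5 were higher at 6 h, while ORC3, ORC4, RFC1, RFC4, POLA2, PRIM1 and POLE2 were lower.

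Of the genes for RPA, the trimer that covers unwound DNA, RPA1 was lower at both times. RPA1 had 3133, 3280 and 3395 at 24 h and 3429, 3412 and 3338 at 6 h, against 3985, 3945 and 4028 in PBS. No HAase array reached the PBS range, and the log2 fold change was -0.29 ± 0.05 at 24 h and -0.23 ± 0.05 at 6 h (SE, limma adjusted p = 0.00213 and 0.00605). A second bright RPA1 probe set gave -0.33 and -0.21, and a dim one gave 0.028 and -0.65, not past the test. Their mean did not pass at 24 h (-0.20, adjusted p = 0.185). RPA2 gave 2793, 3016 and 2999 at 24 h and 2594, 2542 and 2604 at 6 h, against 2942, 3149 and 2768 in PBS. It was low on the 6 h arrays only (-0.19 ± 0.06 SE, limma adjusted p = 0.0386), a call lost without any 1 of the 6 h replicates or PBS replicate 1 or 2 (adjusted p between 0.0782 and 0.12). RPA3 had 7940, 8105 and 9502 at 24 h and 8533, 8387 and 8593 at 6 h, against 9110, 8801 and 9473 in PBS, and did not pass the test (adjusted p = 0.318 and 0.324).

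None of the 9 polymerase and primase genes passed the test at 24 h, and 3 of them fell at 6 h: PRIM1, POLA2 and POLE2. That is 33.3% lower, near the 27.4% of all genes. PRIM1, the catalytic subunit of primase, had 2708, 2811 and 2721 at 24 h and 2004, 2131 and 2359 at 6 h, against 2755, 2834 and 2937 in PBS. The 6 h arrays lay below all others, and its log2 change was -0.39 ± 0.07 (SE, limma adjusted p = 0.00236). POLA2, the accessory subunit of polymerase alpha, gave 489.9, 514 and 550.1 at 24 h and 353, 326 and 348 at 6 h, against 515, 396 and 422 in PBS. Its log2 fold change was 0.22 ± 0.10 at 24 h and -0.35 ± 0.10 at 6 h (SE, limma adjusted p = 0.113 and 0.0214). The 6 h call was lost without 6 h replicate 2 (0.0678) and with quantile normalization. A dim POLA2 probe set gave -0.66 at 24 h and -0.94 at 6 h, and another 0.0044 and 0.15, none past the test. POLE2, an accessory subunit of polymerase epsilon, gave -0.29 ± 0.06 at 6 h (SE, limma adjusted p = 0.00808).

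The catalytic genes of the 3 polymerases did not pass the test at either time. POLA1 gave -0.13 ± 0.06 at 24 h and 0.027 ± 0.06 at 6 h (SE, limma adjusted p = 0.129 and 0.75), POLD1 -0.055 ± 0.10 and -0.11 ± 0.10 (0.705 and 0.422), and POLE 0.13 ± 0.11 and 0.053 ± 0.11 (0.395 and 0.738). PRIM2, the large subunit of primase, had 370.4, 288 and 401 at 24 h and 293, 354 and 309.6 at 6 h, against 303, 247 and 264 in PBS. Its groups overlapped, and 0.35 ± 0.13 at 24 h did not pass (SE, limma adjusted p = 0.0709). POLD2 and POLD3 gave log2 fold changes between -0.16 and -0.05.

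Genes for the enzymes that finish the lagging strand went apart. FEN1, the flap endonuclease that trims its fragments, had 6923, 6735 and 7646 at 24 h and 7975, 6737 and 8252 at 6 h, against 6189, 5694 and 5524 in PBS. All HAase arrays lay above PBS, with log2 fold changes of 0.29 ± 0.09 at 24 h and 0.39 ± 0.09 at 6 h (SE, limma adjusted p = 0.0389 and 0.0105). The 24 h call was lost on leaving out any 24 h replicate or PBS replicate 2 or 3 (adjusted p between 0.0523 and 0.115). A second FEN1 probe set gave 0.12 at 24 h (adjusted p = 0.229 over all probe sets) and 0.23 at 6 h (adjusted p = 0.0304). LIG1, the ligase that seals the fragments, gave 749, 782 and 872 at 24 h and 1001, 803 and 934 at 6 h, against 993, 1168 and 942 in PBS. It was lower at 24 h (-0.36 ± 0.11 SE, limma adjusted p = 0.0348) and did not pass at 6 h (-0.18 ± 0.11, adjusted p = 0.246), and the 24 h call was lost without 24 h replicate 1 or 2 or PBS replicate 1 or 2 (adjusted p between 0.063 and 0.104).

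On the probe set used for each gene, the largest rise and the largest fall at 24 h among the 48 were both in deoxynucleotide supply. RRM2, the regulated small subunit of ribonucleotide reductase, had 16993, 17363 and 16141 at 24 h and 16895, 16483 and 16842 at 6 h, against 12036, 12092 and 12949 in PBS. Every HAase array lay above every PBS array, and the level was 1.36-fold higher at 24 h and 1.35-fold at 6 h (log2 fold changes 0.45 ± 0.05 and 0.44 ± 0.05 SE, limma adjusted p = 0.000324 and 0.000398). A second probe set of RRM2 gave 0.62 and 0.71. TK1, the thymidine kinase of the salvage pathway, gave 1254, 1357 and 1468 at 24 h and 1644, 1518 and 1701 at 6 h, against 2145, 2210 and 2011 in PBS.

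The 3 groups of TK1 arrays did not overlap, and the level was 1.56-fold lower at 24 h and 1.31-fold lower at 6 h (log2 fold changes -0.64 ± 0.08 and -0.39 ± 0.08 SE, limma adjusted p = 0.000333 and 0.0047). The other TK1 probe set gave -0.65 and -0.37. TYMS, thymidylate synthase, was lower at 24 h (-0.18 ± 0.04 SE, limma adjusted p = 0.0144) and gave -0.026 ± 0.04 at 6 h (adjusted p = 0.678). The TYMS call was lost with equal array medians (adjusted p = 0.0772) and with the mean of its probe sets (0.137). A second bright TYMS probe set gave -0.37 at 24 h (limma adjusted p = 0.0243 over all probe sets) and -0.0075 at 6 h. A dim one gave 0.041 and 0.38, not past the test. RRM1, the large subunit that pairs with RRM2, gave -0.11 ± 0.05 at 24 h and -0.037 ± 0.05 at 6 h (SE, limma adjusted p = 0.0946 and 0.558), although its dimmer probe set was lower at 24 h (-0.27, adjusted p = 0.00927 over all probe sets).

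**Figure D3:**
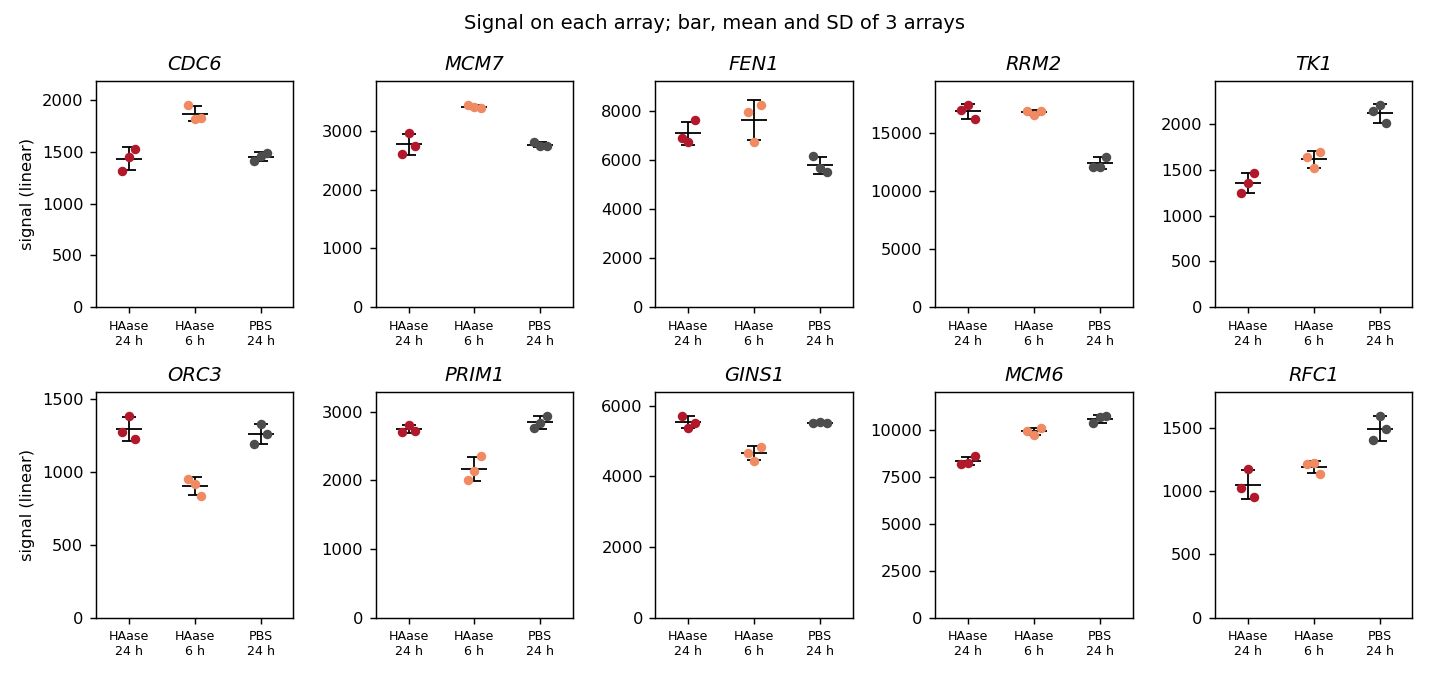
Linear signal of 10 members on each array of HAase 24 h, HAase 6 h and PBS, with the mean and SD of 3 arrays. RRM2 and FEN1 lie above PBS at both times, TK1 and RFC1 below it, CDC6 and MCM7 stand out upwards and ORC3, PRIM1 and GINS1 downwards at 6 h, and MCM6 is lowest at 24 h.

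The 24 h HAase samples were also compared with the 6 h ones, which differed in harvest time as well as in length of treatment. Of the 48 genes, 8 were higher at 24 h than at 6 h and 9 were lower, 35.4% against 33.0% of all genes (19.7% higher and 13.3% lower). The median was -0.043, beside 0.053 for all genes tested. On the probe set used for each gene, POLA2 (0.58 ± 0.10), ORC3 (0.51 ± 0.07) and PRIM1 (0.34 ± 0.07) were the largest log2 differences upwards (SE, limma adjusted p at most 0.00605). On the same probe sets, CDC6 (-0.38 ± 0.07), MCM10 (-0.35 ± 0.06) and RFC2 (-0.33 ± 0.07) were the largest downwards (limma adjusted p at most 0.00633). With the mean of all its probe sets, POLA2 gave 0.23 and did not pass (adjusted p = 0.289). Without any 1 of the 24 h replicates, or without 6 h replicate 2, 5 genes were higher at 24 h. The calls of ORC5, POLE2, RFC4, RFC5, TK1 and TYMS between the times were lost without at least 4 of the 6 arrays in turn (adjusted p between 0.0552 and 0.14). The arrays lay wholly higher at 24 h for 9 members and wholly lower for 14, where 27.5% of all genes lay higher and 18.4% lower (45.9% in all). No member was over 2-fold apart between the times, against 1.71% of all genes called and over 2-fold higher and 2.32% lower at 24 h.

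Mitosis genes, expressed after S phase, passed the test against PBS only downwards. Of 22 mitosis and spindle genes, 16 were lower at 24 h and 21 at 6 h, and none was called higher. That is 72.7% and 95.5% lower, against 22.8% and 27.4% of all genes. At 24 h 6 did not pass, and 1 had a log2 fold change above 0 (0.085). The medians were -0.37 and -0.81, beside -0.026 and -0.083 for all genes. Against 6 h, 21 of the 22 were higher at 24 h, 95.5% against 19.7% of all genes. KIF20A, a mitotic kinesin, gave log2 fold changes of -1.05 ± 0.11 at 24 h and -1.84 ± 0.11 at 6 h (SE, limma adjusted p at most 0.000181). No test was made of the difference between the lists.

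**Figure D4:**
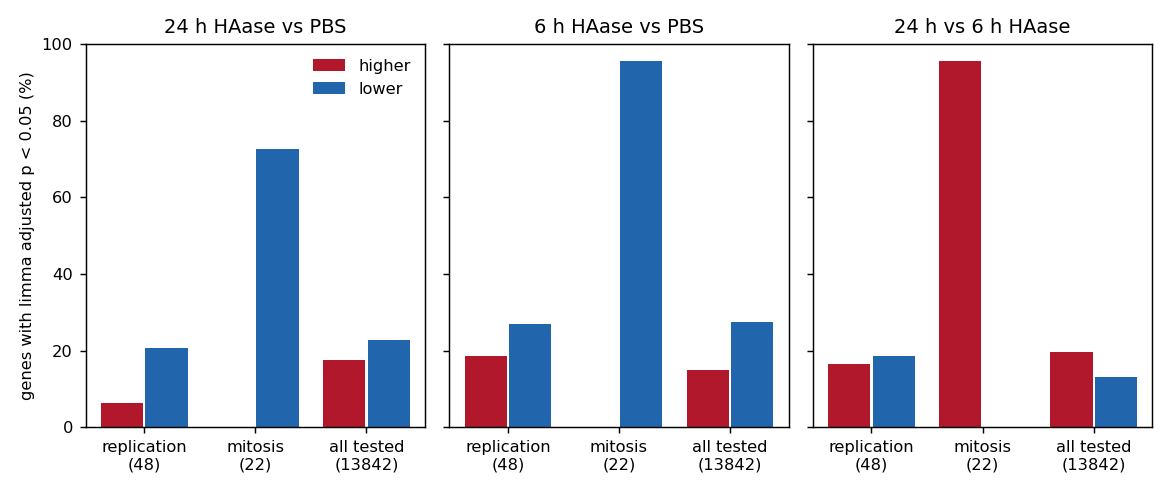
Percent of genes higher or lower at a limma adjusted p under 0.05 among the 48 replication genes, 22 mitosis genes and all 13842 genes tested, in each comparison. At 6 h 21 of 22 mitosis genes were lower, while 9 replication genes were higher and 13 lower.

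Other genes of the pathway were listed by role. Of 20 genes that control entry into S phase 19 were tested, and 4 were higher and 8 lower at 24 h, 6 higher and 6 lower at 6 h. The share called was 63.2% at each time, against 40.3% of all genes at 24 h and 42.4% at 6 h. The gene not tested was RB1. Its brightest probe set with 1 gene symbol averaged 6.14 at 24 h, 4.77 at 6 h and 3.38 in PBS, above the controls on no array. E2F7, a repressor of the E2F family, was 2.16-fold higher at 24 h (log2 fold change 1.11 ± 0.06 SE, limma adjusted p = 5.33e-06) and 1.34-fold at 6 h (0.43 ± 0.06, adjusted p = 0.00119). E2F8, its close relative, was lower at both times (-0.69 ± 0.05 at 24 h and -0.65 ± 0.05 at 6 h), and the activator gene E2F1 was lower at 24 h (-0.71 ± 0.19, limma adjusted p = 0.0196) and did not pass at 6 h (-0.25 ± 0.19, adjusted p = 0.352). At 6 h E2F2 (-0.63 ± 0.10) and RBL2 (-0.63 ± 0.15) fell and the cyclin gene CCNE1 rose (0.63 ± 0.07, limma adjusted p at most 0.00934), as they did at 24 h (-0.29 ± 0.10, -0.48 ± 0.15 and 0.47 ± 0.07, adjusted p at most 0.0426). CDC25A, the phosphatase that activates cyclin-dependent kinases, was higher at 24 h (0.59 ± 0.10, limma adjusted p = 0.00166) and at 6 h (0.63 ± 0.10, adjusted p = 0.00127).

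Of 24 replisome accessory and fork genes 23 were tested, with 4 higher and 5 lower at 24 h and 5 higher and 4 lower at 6 h. The share called was 39.1% at each time, near the 40.3% of all genes at 24 h and 42.4% at 6 h. ATR, the kinase of the replication checkpoint, was lower at both times (-0.54 ± 0.05 at 24 h and -0.43 ± 0.05 at 6 h, SE), and POLD4, the small subunit of polymerase delta, was higher (0.57 ± 0.08 and 0.40 ± 0.08, limma adjusted p at most 0.00541 for both genes). TIMELESS, of the fork protection complex, was lower by similar amounts (-0.32 ± 0.07 and -0.30 ± 0.07). Its partner TIPIN was lower at 24 h (-0.33 ± 0.06, limma adjusted p = 0.00208) and higher at 6 h (0.19 ± 0.06, adjusted p = 0.0269). MCMBP, a binding partner of MCM proteins, was higher at 24 h (0.15 ± 0.05, limma adjusted p = 0.0406) and at 6 h (0.42 ± 0.05, adjusted p = 0.000297).

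Among 11 genes of chromatin copying, 2 were higher and 2 lower at 24 h, and 3 higher and 2 lower at 6 h. The share called was 36.4% at 24 h and 45.5% at 6 h, near the 40.3% and 42.4% of all genes. The histone chaperone genes ASF1A (-0.35 ± 0.07 at 24 h and -0.72 ± 0.07 at 6 h, SE) and ASF1B (-0.36 ± 0.09 and -0.53 ± 0.09) fell (limma adjusted p at most 0.0128). UHRF1, which keeps DNA methylation through replication, rose (0.40 ± 0.05 at both times, limma adjusted p at most 0.000383). Of 12 further genes of nucleotide supply 11 were tested, with 3 higher and 1 lower at 24 h and 2 higher and 3 lower at 6 h. Again 36.4% were called at 24 h and 45.5% at 6 h, near the shares of all genes. SAMHD1, which breaks down deoxynucleotides, was lower (-0.64 ± 0.09 at 24 h and -0.37 ± 0.09 at 6 h, SE, limma adjusted p = 0.000948 and 0.0135). CTPS1, a CTP synthase, was higher (0.24 ± 0.08 and 0.49 ± 0.08, limma adjusted p = 0.0419 and 0.00156).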

How the data were processed

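Total RNA of 9 LiSa-2 samples was measured on Affymetrix arrays, 1 per sample. Each probe set has 1 linear intensity (signal), which the authors deposited from CHP files, per the series design text. Their own analysis used other files, per the same text. The summarisation algorithm is not given in the sources used here. Mean signals trimmed by 2% at each end lay between 500.07 and 500.075 on every array, so the values had been scaled. The number of arrays limits the precision.

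Of 54675 probe sets, 62 were controls, 41091 had 1 gene symbol, 1801 several and 11721 none in the platform annotation, and only those with 1 symbol were used. Signals were used as log2(signal + 16), so fold changes understate those of dim genes. Genes below the 30th percentile of mean log2 signal (about 32.2) were left out, which kept 13842 of 19775. limma 3.58.1 (R 4.3.3; lmFit, eBayes) was run on the 9 arrays together with 1 mean per group and was checked on simulated data, and adjusted p-values are Benjamini-Hochberg over all genes tested. A gene was called at an adjusted p under 0.05. The control level is the brightest of 27 Bacillus control probe sets on an array. Values per array are given for the members with the 2 largest changes of each role at each time. Members and lists were chosen with earlier results of these data known.

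The alternatives were quantile normalization, equal array medians, pseudocounts of 1 and 64, no filter, a 50th percentile filter, the mean of a gene's probe sets, other probe sets, a trended and robust variance model, fits of 2 groups, a replicate block and leaving out each array.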

Additional observations from a re-analysis of the deposited data

Results flagged for a closer look

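For 17 of the 48 replication genes the effect of HAase against PBS differed between 24 h and 6 h, by the direct limma comparison of the 2 times, in which the shared PBS arrays cancel (33.0% of all genes tested passed it). The 8 genes with the higher effect at 24 h, given as log2 differences, were POLA2 (0.58), ORC3 (0.51), PRIM1 (0.34), GINS1 (0.25), ORC4 (0.22), POLE2 (0.22), ORC5 (0.21) and RFC4 (0.20). The 9 with the lower effect at 24 h were CDC6 (-0.38), MCM10 (-0.35), RFC2 (-0.33), RFC3 (-0.31), MCM7 (-0.30), MCM6 (-0.25), TK1 (-0.25), RFC5 (-0.20) and TYMS (-0.15). Adjusted p-values ran up to 0.0489. The HAase groups also differed in harvest time, which cannot be told apart from the length of treatment.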

How the results depend on the processing

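Under 16 alternatives per comparison, of which 6 left out 1 array, the main probe set of no called gene changed direction. Single other probe sets were not among the 16. Some genes whose calls held had another probe set that did not pass the test. Examples are RFC1 at 24 h (-0.30, limma adjusted p = 0.0757 over all probe sets) and RFC2 at 6 h (0.20, adjusted p = 0.204). At 24 h 4 of 13 calls held under all of them (MCM6, RFC1, RRM2 and TK1), at 6 h 13 of 22 (CDC6, CDC7, FEN1, GINS1, MCM7, ORC3, ORC4, POLE2, PRIM1, RFC2, RPA1, RRM2 and TK1), and for 24 h against 6 h 8 of 17 (CDC6, GINS1, MCM6, MCM7, MCM10, ORC3, PRIM1 and RFC2). The cause of the losses was not tested. The genes higher at 24 h numbered 1 with the mean of all probe sets and 1 to 3 on leaving out an array (1 without PBS replicate 3), against 3. Those lower at 24 h numbered 5 with equal array medians and 6 to 11 on leaving out an array (6 without 24 h replicate 2), against 10. At 6 h 5 genes were higher with the mean of all probe sets, against 9. For 24 h against 6 h, 8 genes were higher, but 3 with the mean of all probe sets, 5 with equal array medians, 5 without a filter, 5 with the replicate block and 5 to 6 on leaving out an array. The replicate numbers showed no sign of pairing the samples, which does not show that the samples were unpaired. Deviations of same-numbered arrays correlated at -0.0488 to 0.0369 and those of differently numbered arrays at -0.0644 to 0.057. The replicate block gave 3 higher and 9 lower at 24 h and 7 and 11 at 6 h. Other probe sets turned the sign for RFC5 (-0.38 at 24 h and -0.16 at 6 h), TYMS (0.041), RFC3 (0.011) and RPA1 (0.028) at 24 h, CDT1 (-0.081) and POLA2 (0.15) at 6 h, and ORC4 (-0.026), ORC5 (-0.24), RFC3 (0.13) and POLA2 (-0.15) for 24 h against 6 h. Of these only RFC5 at 24 h passed the test (adjusted p = 0.0184). Turns of sign in which neither the main nor the other probe set passed are left out. The medians of the 48 genes stayed below 0 throughout (-0.089 to -0.026 at 24 h, -0.094 to -0.028 at 6 h, -0.079 to -0.0065 for 24 h against 6 h).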
